A study of Homo sapiens with 4 samples.

Results

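The genes described here are 47 genes of the mitotic machinery, chosen by name as a fixed list and found in the table by symbol. All 47 of them had a row among the 40205 rows, and all 47 were among the 16098 genes that reached an RPKM (reads per kilobase of gene model, scaled to the library's reads) of 1 in at least 1 library and were tested. They fall into 12 mitotic kinases, cyclins and their regulators, 19 kinetochore and checkpoint genes, 5 genes of the anaphase-promoting complex and sister separation, 7 spindle and cytokinesis genes, and 4 transcription factors and chromosome proteins. The study sequenced poly(A) RNA from U87MG and U251, both established human glioblastoma cell lines. In each line, cells infected with a lentivirus carrying the negative-control hairpin sh-NC (samples titled WT) were set against cells infected with a lentivirus carrying the hairpin sh-SRSF1 (samples titled KD). SRSF1 is a serine/arginine-rich splicing factor. All 4 groups were infected at a multiplicity of infection of 20 and selected with puromycin for 1 week, so the controls also carry a hairpin virus and the selection. There was 1 library per line and arm, and nothing says whether a stable line was 1 clone or whether a line's libraries stem from separate infections.

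Entry into mitosis is driven by CDK1 bound to its A-type and B-type cyclins, with the Polo and Aurora kinases acting beside it. Kinetochores, built on centromeric CENPA chromatin, attach chromosomes to microtubules through the NDC80 complex, and unattached kinetochores hold back the anaphase-promoting complex (APC/C) through the spindle checkpoint. CDC20 and FZR1 activate APC/C in turn, and its ligase activity destroys cyclin B and securin (PTTG1) so that separase (ESPL1) can part the sister chromatids. Most of these genes are transcribed late in the cell cycle. The DREAM complex represses them in quiescent cells, and MYBL2 and FOXM1 activate them together with the MuvB core, through a promoter element called the cell cycle homology region (CHR), often with CCAAT boxes bound by NF-Y.

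The promoters of 6 of the genes are shown. Among genes with a single promoter entry, these mark the ends of the response described below. SPC24, MKI67 and PRC1 had the lowest mean log2 ratio of such genes, and ANLN, CKS1B and CKS2 the highest. ECT2 and CDC25B, with several entries, and BUB3, with none, had higher mean ratios still. The sequences are the 200 bases before the transcription start from RefSeq on GRCh38.p14, written 5′ to 3′ on the gene's strand. Capitals mark the CHR core TTTGAA and the CCAAT box on either strand, so that TTCAAA and ATTGG are capitals too. They lie at chr19:11155783-11155982 (reverse strand) for SPC24, chr10:128126424-128126623 (reverse) for MKI67, chr15:90994536-90994735 (reverse) for PRC1, chr7:36389662-36389861 (forward) for ANLN, chr1:154974481-154974680 (forward) for CKS1B and chr9:89310995-89311194 (forward) for CKS2.
SPC24: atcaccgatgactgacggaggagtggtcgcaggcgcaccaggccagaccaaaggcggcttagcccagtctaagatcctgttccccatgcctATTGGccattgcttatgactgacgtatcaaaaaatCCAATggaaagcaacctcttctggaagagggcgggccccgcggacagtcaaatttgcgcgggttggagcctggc
MKI67: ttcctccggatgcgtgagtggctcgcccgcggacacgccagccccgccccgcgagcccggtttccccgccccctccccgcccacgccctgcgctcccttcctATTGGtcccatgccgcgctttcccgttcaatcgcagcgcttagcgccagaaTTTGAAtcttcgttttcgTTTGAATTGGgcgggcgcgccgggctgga
PRC1: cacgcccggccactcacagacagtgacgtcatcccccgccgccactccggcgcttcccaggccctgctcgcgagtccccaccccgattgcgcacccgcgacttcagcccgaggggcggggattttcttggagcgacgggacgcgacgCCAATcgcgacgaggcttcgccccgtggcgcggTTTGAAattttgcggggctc
ANLN: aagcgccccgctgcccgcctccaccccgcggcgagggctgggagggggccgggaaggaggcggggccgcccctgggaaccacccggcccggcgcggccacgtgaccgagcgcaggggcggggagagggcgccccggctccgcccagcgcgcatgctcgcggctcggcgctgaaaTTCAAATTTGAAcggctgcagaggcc
CKS1B: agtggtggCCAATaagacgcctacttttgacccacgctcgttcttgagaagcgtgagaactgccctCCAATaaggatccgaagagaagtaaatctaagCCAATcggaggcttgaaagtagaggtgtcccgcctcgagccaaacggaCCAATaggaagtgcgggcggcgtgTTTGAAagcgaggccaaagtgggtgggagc
CKS2: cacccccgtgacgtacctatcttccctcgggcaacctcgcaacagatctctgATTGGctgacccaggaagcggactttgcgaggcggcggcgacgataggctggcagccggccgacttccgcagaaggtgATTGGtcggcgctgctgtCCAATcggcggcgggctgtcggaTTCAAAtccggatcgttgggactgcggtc

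In these windows MKI67 holds TTTGAA with its first base at -47 and -29 from the start, PRC1 at -20, CKS1B at -30, CKS2 at -29 on the opposite strand, and ANLN at -20 and, on the opposite strand, -26. SPC24 holds CCAAT boxes and no TTTGAA. Among genes with a single promoter entry, both ends of the response therefore hold genes with these letters.

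Of the 47 genes, 39 matched a promoter in the RefSeq table. The others were AURKA, TTK, BUB3, CENPM, BIRC5, UBE2C, TPX2 and FOXM1. In the window from 250 bases before to 50 after the start, 28 of the 39 (71.8%) held TTTGAA on either strand in at least 1 of their promoters. The same letters occurred in 14.2% of 9004 tested mRNA genes and in 15.2% of all 35116 promoters. A CCAAT box was found in 31 of the 39 (79.5%), against 44.5% of the tested mRNA genes and 34.6% of all promoters. Both motifs were found in 23 members (59.0%), against 5.94% of the tested mRNA genes. An E2F site (TTTCCCGC, TTTGGCGC, TTTCGCGC or TTTGCCGC) was found in 3 members, 7.69% against 6.82%. The motifs do not overlap in letters except where a match runs into the next, as in MKI67. Such a match is a string of letters and not a shown binding site. The median of the mean log2 ratio over the lines was -1.12 for the 28 members with TTTGAA and -1.12 for the 11 without.

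**Figure D1:**
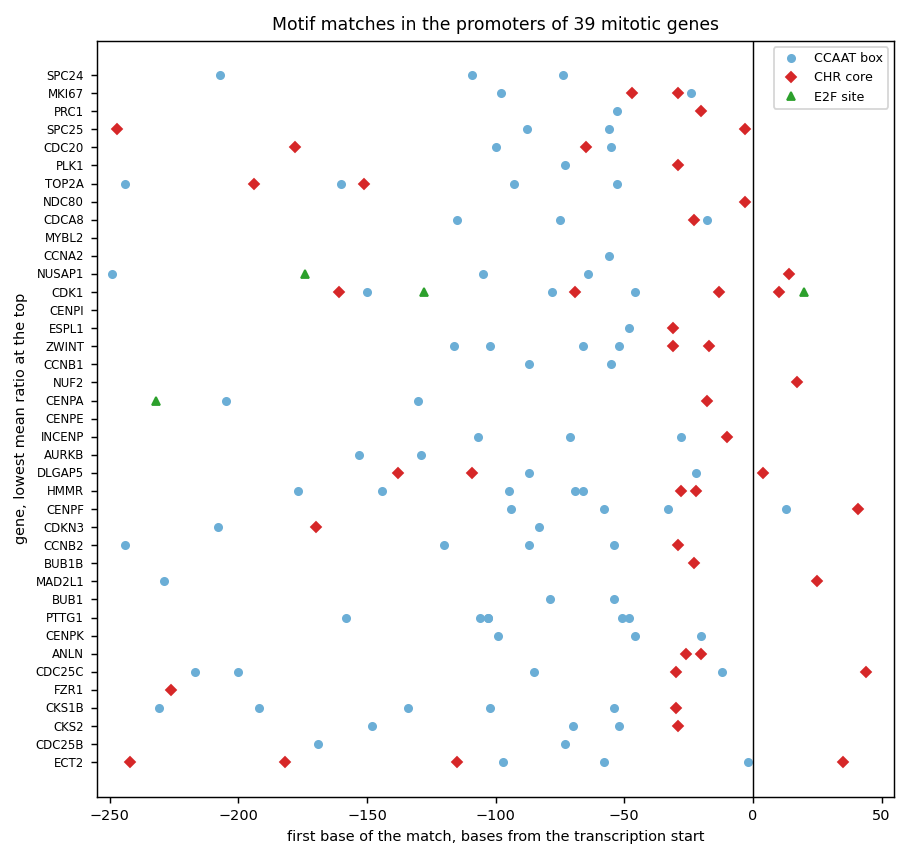
Motif matches in the promoters of 39 mitotic genes, ordered by mean log2 ratio with the lowest at the top. The x axis gives the first base of each match in bases from the transcription start; red diamonds are TTTGAA (28 genes), blue circles CCAAT (31 genes) and green triangles E2F sites (3 genes), on either strand, and many red diamonds sit just before the start from the top to the bottom of the order.

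Depth and identity of the libraries were checked first. The RPKM steps of weakly expressed genes, with the lengths of microRNA hairpins, gave library totals of 25099799 to 27953878 reads. All 47 genes came out as whole reads, 39 to 39012 in a library. SRSF1, the targeted gene, stood at 88.3 RPKM in the control and 14.6 in the knockdown of U87MG and at 109 and 15.8 RPKM in U251 (limma estimate -2.62 ± 0.16 SE, adjusted p = 0.0022). The cell identity markers VIM (1065 to 1675 RPKM), CD44 and EGFR were present in all libraries, while GFAP reached at most 1.47 RPKM, OLIG2 at most 2.46 RPKM, and SOX2 and NES were high in U251 only (SOX2 47.9 and 49.3 RPKM there, at most 0.121 RPKM in U87MG). Summed leukocyte markers stayed at or under 0.192 RPKM and endothelial markers at or under 0.498 RPKM in every library. Summed markers of epithelium were 1.82 and 2.54 RPKM in U87MG and 27.6 and 25.8 RPKM in U251, and those of mature neurons 1.53 to 2.54 RPKM. In the U251 control and knockdown, KRT18 made up 22.4 and 19.9 RPKM of the epithelial sum. EPCAM was at most 0.125 RPKM and CDH1 at most 0.0149 RPKM in U251. Exons of 11 of the 47 genes (CCNA2, PLK1, CDC25C, MAD2L1, NUF2, SPC24, FZR1, PRC1, HMMR, ANLN and FOXM1) overlap exons on the opposite strand, whose reads cannot be told apart where the strand is not kept, and those of 4 (BUB1B, CENPA, PRC1 and NUSAP1) exons of another gene on the same strand. In 8 genes (PRC1, NUSAP1, CDC20, CKS1B, AURKA, SPC25, PTTG1 and SPC24) more than 0.1 of the 31-base words of the transcripts occur in other genes too, so their values are less certain.

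All 47 genes were lower in the knockdown library in both lines. The log2 ratio of (knockdown RPKM + 1) over (control RPKM + 1), a scale that understates changes of weakly expressed genes, had a median of -1.46 in U87MG and -0.76 in U251. The medians over all genes tested were -0.05 and 0.00. In U87MG the ratios ran from -2.24 (SPC24) to -0.44 (CDC25B), and in U251 from -1.37 (MKI67) to -0.07 (CKS1B). As levels, the median gene kept 0.347 times its control RPKM in U87MG and 0.586 times in U251. Any decrease in both lines was seen in 36.5% of all genes tested. On the scale with 1 RPKM added, 40 of the 47 were at least 2-fold lower in U87MG, against 3.58% of all genes, and 4 of the 47 in U251, against 1.71%. These 4 were SPC24, MKI67, PRC1 and ESPL1, and all 4 also passed 2-fold in U87MG. By RPKM with nothing added, 7 of the 47 were at least 2-fold lower in U251, against 6.84% of all genes, CDK1, CCNA2 and CENPA being the further 3.

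In a fit blocked by line, limma called 30 of the 47 genes lower (2 libraries per arm, threshold 0.05 on the p adjusted over all genes), against 2.61% of all genes called lower. None was called higher, also at an unadjusted p under 0.05, against 1.16% of all genes called higher. At an unadjusted p under 0.05, 46 of the 47 were lower, against 12.8% of all genes. The adjusted p of the 30 ran from 0.0122 to 0.0498, and the standard errors of all 47 estimates from 0.16 to 0.26. The calls depended on the scaling of the libraries: over all genes limma called 420 lower and 186 higher, and 52 and 47 after trimmed-mean rescaling, when 2 of the 47 members were called (44 at an unadjusted p under 0.05). With the median ratio of well expressed genes set to 0 within each line, 0 members were called (46 at an unadjusted p under 0.05), and all 47 were lower in both lines under either setting. In these bulk samples, fewer cells in mitosis and less RNA per cell cannot be told apart.

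**Figure D2:**
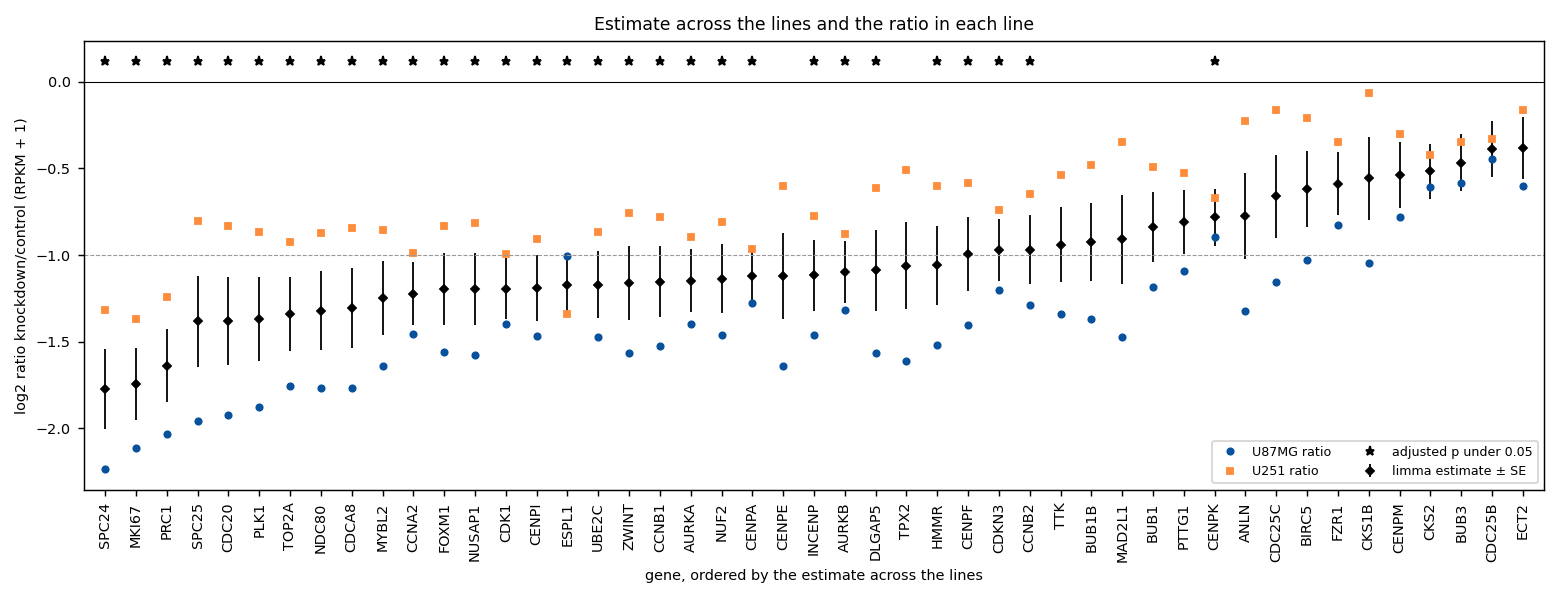
Log2 ratios of the 47 genes, ordered by the limma estimate across the lines. Black diamonds with bars are the estimate ± SE (2 libraries per arm), blue circles the U87MG ratio, orange squares the U251 ratio, and stars mark the 30 genes with an adjusted p under 0.05; the blue circles lie under the orange squares in 46 of 47 genes, ESPL1 being the exception.

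Among the mitotic kinases, cyclins and their regulators, the core CDK1 module was called lower while several of its regulators did not pass the test. Of 12 genes, 8 were called lower and the ratios of all 12 were negative, with a median of -1.30 in U87MG and of -0.76 in U251. CDK1, the kinase that starts mitosis, went from 44.7 RPKM in the U87MG control to 16.4 in the knockdown and from 66.3 to 32.8 in U251 (estimate -1.19 ± 0.18 SE, adjusted p = 0.021). Where pairs of levels follow with no line named, U87MG comes first and U251 second, each as control and then knockdown. Its partner CCNB1, cyclin B1, went from 103 to 35.2 and from 151 to 87.2 RPKM (-1.15 ± 0.21). CCNB2, cyclin B2, went from 51.7 to 20.6 and from 64.1 to 40.6 RPKM (-0.97 ± 0.20). In each line the kinase and both B-type cyclins were lower in the knockdown library, and the level of CCNB1 relative to CDK1 stayed between 2.15 and 2.66 in the 4 libraries. CCNA2, cyclin A2, which acts from S phase to early mitosis, stood in U87MG at 27.4 and 9.34 and in U251 at 66.4 and 32.9 RPKM (-1.22 ± 0.18).

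The kinases acting beside CDK1 fell as well. PLK1, the Polo kinase of centrosomes and kinetochores, had the lowest mean ratio of this class, at 53.6 and 43.8 RPKM in the controls of U87MG and U251 and 13.9 and 23.6 RPKM in their knockdowns (-1.37 ± 0.24, adjusted p = 0.029). By recovered reads its knockdown level was 0.259 times the control in the first line (0.239 to 0.280, exact 95% interval) and 0.538 times in the second (0.503 to 0.575), so the 2 lines lay apart beyond counting error. Such intervals cover counting error only, and PCR copies are not separate molecules. AURKA, the spindle pole Aurora kinase, went from 64.0 to 23.7 and from 92.1 to 49.0 RPKM. AURKB, the Aurora kinase of the passenger complex, went from 50.5 to 19.6 and from 99.3 to 53.5 RPKM. For AURKB the U251 knockdown library thus stood above the U87MG control. CDKN3, a phosphatase acting on CDKs, also fell (-0.97 ± 0.18), from 84.0 to 36.01 and from 66.2 to 39.3 RPKM.

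The CDC25 phosphatases and the CKS subunits made up the genes of the class without a call. CDC25B, which removes inhibitory phosphates from CDK1, had the mean ratio closest to 0 of this class, at 16.2 and 11.6 RPKM in U87MG and 40.0 and 31.6 RPKM in U251 (-0.39 ± 0.16, adjusted p = 0.23). CDC25C, its relative acting at mitotic entry, stood in U87MG at 7.19 and 2.68 and in U251 at 12.1 and 10.6 RPKM. Its ratio was -1.16 in the first line and -0.16 in the second, and limma gave an adjusted p of 0.17. The CDK-binding subunits CKS1B and CKS2 are close relatives that differed in how alike the lines were. CKS1B was in U87MG at 22.1 and 10.2 and in U251 at 37.4 and 35.7 RPKM, where the interval of the read ratio (0.835 to 1.09) included 1. CKS2 was in U87MG at 114 and 74.1 and in U251 at 89.8 and 66.7 RPKM, with ratios of -0.61 and -0.42. Of the 31-base words of CKS1B, a share of 0.205 is found in other annotated genes.

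**Figure D3:**
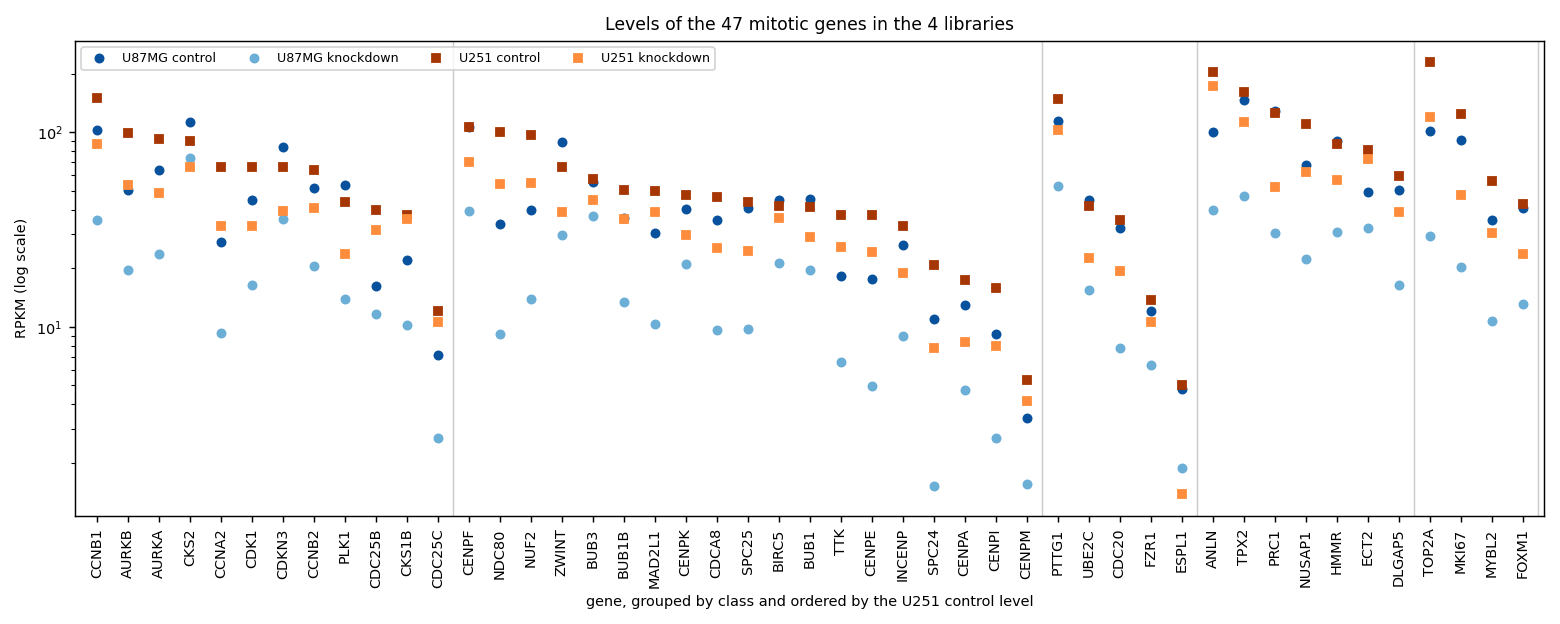
RPKM of the 47 genes in the 4 libraries on a log axis, grouped by class from left to right (kinases and cyclins, kinetochore and checkpoint, anaphase, spindle and cytokinesis, factors and chromosome proteins) and ordered by the U251 control. Dark symbols are controls and light symbols knockdowns, circles U87MG and squares U251; each light symbol lies under the dark symbol of its line, and the U87MG knockdown is the lowest library for 45 of the 47 genes.

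In the kinetochore and checkpoint class, the 4 subunits of the NDC80 complex were all called lower, and 0 of the 5 checkpoint genes were called (5 at an unadjusted p under 0.05). Of 19 genes, 11 were called lower, with U87MG and U251 class medians of -1.46 and -0.67. SPC24, which with SPC25 anchors the NDC80 complex to the inner kinetochore, had the lowest estimate of all 47 genes. It went from 10.9 RPKM in the U87MG control to 1.53 in the knockdown and from 20.9 to 7.80 in U251 (-1.78 ± 0.23, adjusted p = 0.015). SPC25 went from 40.8 to 9.75 and from 43.7 to 24.6 RPKM (-1.38 ± 0.26). For the microtubule-binding pair, NDC80 stood in U87MG at 33.7 and 9.18 and in U251 at 100 and 54.4 RPKM, and NUF2 at 40.1 and 13.9 RPKM and at 97.0 and 54.9 RPKM. The control level of this pair was therefore more than 2 times higher in U251, while SPC25 stood at 40.8 and 43.7 RPKM in the controls. Per gene length, NDC80 stood 3.09 times above SPC24 in the U87MG control and 6.01 times above it in the knockdown, and 4.81 and 6.97 times above it in U251.

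The checkpoint genes had U87MG and U251 medians of -1.34 and -0.48. Their missing calls depended on the settings: limma called BUB1, BUB1B, MAD2L1 and TTK lower with a filter at 5 RPKM (adjusted p 0.021 to 0.043), and BUB1, BUB1B and TTK after quantile normalization (0.036 to 0.041). TTK, the MPS1 kinase that starts the checkpoint, was in U87MG at 18.3 and 6.61 and in U251 at 37.6 and 25.6 RPKM (-0.94 ± 0.22, adjusted p = 0.059). BUB1, a kinetochore kinase, was at 45.6 and 19.5 RPKM and at 41.4 and 29.1 RPKM. BUB1B, encoding BUBR1 of the mitotic checkpoint complex, was at 36.4 and 13.4 RPKM and at 50.3 and 35.8 RPKM. In these genes the U87MG ratio was more than 2 times as negative as the U251 ratio. MAD2L1, the MAD2 protein that inhibits CDC20, had ratios 1.12 apart, its levels in U87MG being 30.4 and 10.3 and in U251 49.7 and 38.8 RPKM. BUB3, a WD-repeat adaptor that also serves outside mitosis, had the mean ratio closest to 0 of the class, at 55.8 and 37.0 RPKM and at 57.6 and 45.0 RPKM (-0.47 ± 0.16, adjusted p = 0.16).

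Among the centromere proteins, all 6 were lower in both lines, and CENPA, CENPF, CENPI and CENPK were called. CENPA, the histone H3 variant that marks centromeres, went in U87MG from 13.0 to 4.76 and in U251 from 17.4 to 8.40 RPKM (-1.12 ± 0.17, adjusted p = 0.021). CENPI, a subunit of the constitutive centromere network, went from 9.17 to 2.68 and from 15.8 to 7.95 RPKM. CENPK, of the same network, had ratios of -0.90 and -0.67, from 40.3 to 21.2 and from 47.5 to 29.5 RPKM. CENPF, a large outer kinetochore protein, started at 106 RPKM in both controls and reached 39.4 RPKM in the U87MG and 70.7 RPKM in the U251 knockdown (-0.99 ± 0.21), at an adjusted p of 0.0498 just inside the threshold. CENPE, the kinetochore motor, lay just outside it, with 17.5 and 4.96 in U87MG and 37.4 and 24.3 RPKM in U251 (-1.12 ± 0.25, adjusted p = 0.053). CENPM was the most weakly expressed of them, at 3.38 and 1.55 RPKM and at 5.35 and 4.16 RPKM, with an adjusted p of 0.16. ZWINT, which links the kinetochore scaffold to the checkpoint, fell from 89.3 to 29.5 and from 66.1 to 38.7 RPKM (-1.16 ± 0.22).

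The chromosomal passenger complex places AURKB on centromeres and later on the spindle midzone. Its targeting subunit CDCA8, also called borealin, fell in U87MG from 35.3 to 9.66 and in U251 from 46.3 to 25.4 RPKM (-1.30 ± 0.23). INCENP, the scaffold that activates AURKB, fell from 26.5 to 8.97 and from 33.0 to 18.9 RPKM (-1.12 ± 0.20). BIRC5, encoding survivin, was in U87MG at 44.7 and 21.4 and in U251 at 41.8 and 36.1 RPKM and was not called (-0.62 ± 0.22, adjusted p = 0.16). In U251 its read ratio was 0.864 (interval 0.819 to 0.911), against 0.549 for CDCA8 (0.517 to 0.582) and 0.573 for INCENP (0.543 to 0.605), so within that line the survivin transcript was lowered less than its partners beyond counting error.

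In the anaphase class, CDC20, UBE2C and ESPL1 were called lower, and PTTG1 and FZR1 were lower in both lines without a call. The class medians were -1.09 in U87MG and -0.84 in U251. CDC20, the APC/C activator of metaphase, went in U87MG from 32.3 to 7.77 and in U251 from 35.2 to 19.3 RPKM (-1.38 ± 0.25, adjusted p = 0.033). FZR1, the CDH1 activator of late mitosis and G1, was at 12.1 and 6.40 RPKM and at 13.8 and 10.6 RPKM (-0.59 ± 0.18, adjusted p = 0.13). The level of CDC20 relative to FZR1 was 2.66 and 2.56 in the controls of U87MG and U251 and 1.21 and 1.82 in their knockdowns. UBE2C, the ubiquitin-conjugating enzyme that starts chains for APC/C, went from 44.7 to 15.4 and from 41.9 to 22.5 RPKM (-1.17 ± 0.20).

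Separase and its inhibitor differed in which line showed the lower ratio. ESPL1, separase, went in U87MG from 4.78 to 1.87 and in U251 from 5.04 to 1.38 RPKM (-1.17 ± 0.18, adjusted p = 0.022). It was the 1 member with the more negative ratio in U251 (-1.34 against -1.01). Its read ratios were 0.392 (interval 0.343 to 0.446) in U87MG and 0.275 (0.238 to 0.316) in U251, intervals that do not overlap. PTTG1, securin, was in U87MG at 114 and 53.0 and in U251 at 148 and 102 RPKM (-0.81 ± 0.18, adjusted p = 0.058). PTTG1 stood 23.9 and 29.4 times above ESPL1 in the U87MG and U251 controls and 28.3 and 74.1 times above it in the knockdowns. Other genes, PTTG3P among them, hold a share of 0.153 of the words of PTTG1.

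Of the 7 spindle and cytokinesis genes, 4 were called lower, and the class held both a strong and the weakest response. The medians were -1.57 in U87MG and -0.60 in U251. PRC1, which bundles midzone microtubules, stood in U87MG at 128 and 30.5 and in U251 at 126 and 52.6 RPKM (-1.64 ± 0.21, adjusted p = 0.015). NUSAP1, a microtubule stabiliser at the spindle, went from 68.3 to 22.2 and from 111 to 62.7 RPKM (-1.20 ± 0.21). Shares of 0.645 of the words of PRC1 and 0.698 of those of NUSAP1 occur in a second annotated gene with overlapping exons. Some reads of both could therefore have been assigned there. DLGAP5 (HURP), a kinetochore-fibre protein, fell from 50.3 to 16.3 and from 59.8 to 38.8 RPKM, and HMMR, a spindle pole protein, from 90.02 to 30.8 and from 87.0 to 57.0 RPKM. Both had an adjusted p of 0.049.

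TPX2, ANLN and ECT2 were not called. TPX2, the activator of AURKA on the spindle, was in U87MG at 146 and 47.2 and in U251 at 160 and 112 RPKM, with ratios of -1.61 and -0.51. ANLN, anillin of the contractile ring, was in U87MG at 101 and 39.6 and in U251 at 203 and 174 RPKM, with ratios of -1.32 and -0.22. Each of these had ratios 1.10 apart between the lines. ECT2, the exchange factor that switches on RhoA at the cleavage plane, had the estimate closest to 0 of all 47 genes (-0.38 ± 0.18, adjusted p = 0.27). It stood in U87MG at 49.4 and 32.2 and in U251 at 81.3 and 72.6 RPKM, and was the 1 member not reaching an unadjusted p under 0.05. Its RefSeq promoters hold TTTGAA and CCAAT matches, as those of many other members do.

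All 4 transcription factors and chromosome proteins fell, with U87MG and U251 medians of -1.70 and -0.89. MYBL2, the B-MYB factor that joins MuvB, went in U87MG from 35.4 to 10.7 and in U251 from 55.9 to 30.5 RPKM (-1.25 ± 0.21, adjusted p = 0.028). FOXM1, the forkhead activator of late cell cycle genes, went from 40.8 to 13.1 and from 43.0 to 23.7 RPKM (-1.20 ± 0.21). The U87MG ratios of these activators (-1.64 and -1.56) and their U251 ratios (-0.85 and -0.83) were near the medians of the 47 genes. TOP2A, topoisomerase II alpha, went from 101 to 29.4 and from 229 to 120 RPKM (-1.34 ± 0.21). MKI67, the Ki-67 surface protein of mitotic chromosomes, fell from 91.1 to 20.2 and from 124 to 47.6 RPKM (-1.74 ± 0.21, adjusted p = 0.012). Its read ratio was 0.222 (0.216 to 0.228) in U87MG and 0.383 (0.376 to 0.390) in U251.

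The ratio was more negative in U87MG than in U251 in 46 of the 47 genes, against 57.1% of all genes tested, with a median difference of -0.75. By recovered reads the intervals of the lines did not overlap in 44 of the 47 genes, against 36.6% of all genes tested whose reads could be recovered. In 43 of the 47 the U87MG interval was the lower one, against 23.8% of those genes. Such intervals are narrower where a gene has more reads. The 47 were not set against genes of like depth, so these shares are not like for like. A difference of at least 1 log2 unit was seen in 7 genes, PLK1, SPC25, CENPE, MAD2L1, CDC20, TPX2 and ANLN. The share of all genes with such a difference was not counted. No test of these differences was made, since 1 library per line and arm leaves no residual degree of freedom for an interaction. Across the 47 genes the ratios of the lines had a Pearson r of 0.66 and a Spearman rho of 0.60. This is a description: the genes of a line share its libraries, and the lines share none.

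**Figure D4:**
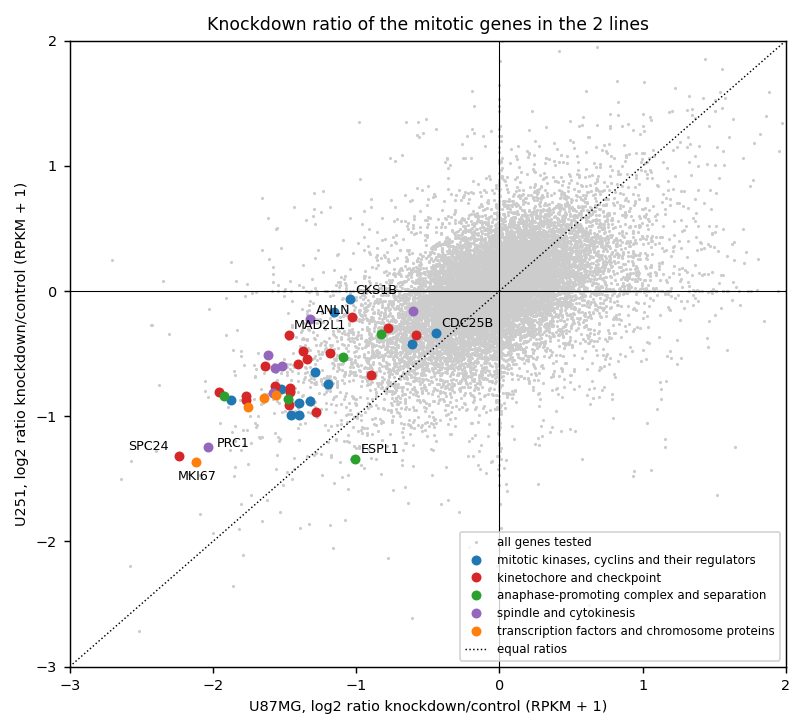
Log2 ratio of knockdown over control in U87MG (x axis) and U251 (y axis), with the 16098 genes tested in grey and the 47 mitotic genes coloured by class; genes beyond -3 or 2 are outside the frame. All 47 have negative values on both axes, and all but ESPL1 lie above the dotted line of equal ratios, that is, lower in U87MG.

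The lines also differed in the level of these genes. In the controls 38 of the 47 had a higher RPKM in U251, with a median of 1.34 times the U87MG level. In the knockdown libraries 45 of 47 were higher in U251, with a median of 2.38 times. Averaged over the arms, limma called 29 of the 47 lower in U87MG, against 27.0% of all genes, and 0 higher (0 at an unadjusted p under 0.05), against 21.6%. With no filter on low values 6 of the 47 were called lower in U87MG. NDC80 had the largest such difference (-1.995 log2 units). For 14 of the 47 the U251 knockdown library stood at or above the U87MG control, among them CCNA2, NDC80, NUF2, ANLN, ECT2 and TOP2A. CDKN3 and ZWINT were among the genes with the higher control level in U87MG. No share over all genes was counted beside the 38, 45 and 14 genes. Whether those counts are particular to the 47 therefore cannot be told.

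Other genes of the same machinery, in 5 lists apart from the 47, were compared in the same fit. Of all 16098 genes tested, 2.61% were called lower and 1.16% higher. The APC/C core and regulators had U87MG and U251 medians of -0.28 and -0.13 over 17 genes, against -0.05 and -0.004 over all genes tested. At an unadjusted p under 0.05 in the limma fit, 5 of the 17 were lower, against 12.8% of all genes. After adjustment 2 were called lower and 0 higher. These were FBXO5, the EMI1 inhibitor of APC/C (from 41.2 to 12.4 and from 48.9 to 21.2 RPKM, -1.41 ± 0.18), and CDC27, a scaffold subunit (from 24.9 to 12.2 and from 30.1 to 12.2 RPKM, -1.11 ± 0.17). ANAPC13 had ratios of -0.53 and -0.64, and UBE2S, the chain-extending enzyme, -0.92 and -0.11, neither called. The activator CDC20 and the enzyme UBE2C fell in the same libraries.

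Of 34 other kinetochore and checkpoint genes, 33 had negative ratios in U87MG and 31 in U251, and 10 were called lower (medians -0.92 and -0.46). Of all 16098 genes tested, 8927 had negative ratios in U87MG and 8127 in U251, and 2.61% were called lower. HJURP, the chaperone that deposits CENPA, fell in U87MG from 43.0 to 11.7 and in U251 from 66.0 to 29.99 RPKM (-1.45 ± 0.20). KNTC1, which recruits dynein to kinetochores, fell by 1.33 on the log2 scale, CENPO by 1.23 and CENPU by 1.17, and CENPH, SKA1, SKA3, SGO1 and SGO2 fell by 0.99 to 1.11. KNL1, the scaffold that binds BUB1 and ZWINT, had ratios of -1.78 and -0.59 and was not called (adjusted p = 0.056). Of 24 other spindle and cytokinesis genes, 8 were called lower (medians -1.04 and -0.52), led by ASPM, a spindle pole protein (from 22.3 to 5.37 and from 65.1 to 29.3 RPKM, -1.50 ± 0.21). CKAP2L, FAM83D, CKAP2, TUBG1, CEP55, KNSTRN and CDCA2 were the others. CIT, citron kinase, had ratios of -1.80 and -0.52 and was not called (adjusted p = 0.068).

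Among 25 measured genes of mitotic entry and other kinases, 8 were called lower and 0 higher. The list did not move as a whole: ratios were positive for 6 genes in U87MG and 5 in U251. They reached 0.71 and 0.93. WEE1 and PKMYT1, which put the inhibitory phosphates on CDK1, fell by 1.10 and 1.01 on the log2 scale. PLK4, the centriole duplication kinase, fell by 1.23, ARPP19, an inhibitor of the phosphatase that opposes CDK1, by 1.13, PBK by 1.12, CCNF by 1.08, GTSE1 by 0.99 and BORA, which helps to activate PLK1, by 0.80. The list medians were -0.71 and -0.26. Of 11 genes of the MuvB core, its DREAM partners and NF-Y, 1 was called lower, with medians of -0.29 and -0.14. That gene was RBL1, the p107 pocket protein, from 16.7 to 3.82 and from 11.0 to 3.99 RPKM (-1.57 ± 0.19, adjusted p = 0.014). LIN9, a MuvB subunit, was in U87MG at 8.19 and 3.46 and in U251 at 6.33 and 6.25 RPKM, and LIN52 and NFYB had ratios between -0.32 and -0.17 and no call.

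**Figure D5:**
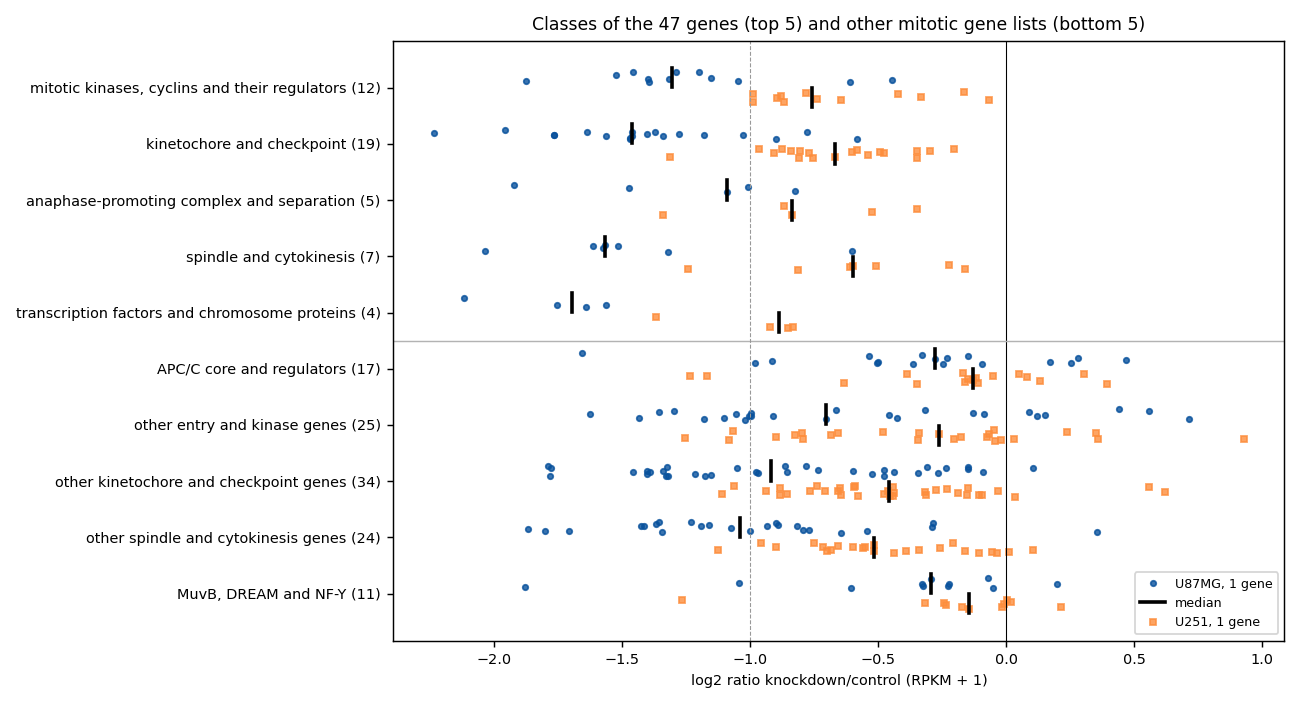
Log2 ratio of knockdown over control for each gene of the 5 classes of the 47 genes (top) and of 5 other lists of mitotic genes (bottom), with the number of genes in brackets. Blue circles are U87MG, orange squares U251 and black bars medians; the APC/C list and the MuvB, DREAM and NF-Y list have medians of -0.28 and -0.29 in U87MG, closer to 0 than the 5 classes above them.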

How the data were processed

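The 4 libraries were read paired-end after poly(A) selection, per the labels' protocols. The authors deposited 1 RPKM value per gene and library. The submitters' processing notes name Bowtie 0.12.2 and the build hg19. Which program, annotation and strand setting gave the RPKM is not given in the sources. Because RPKM values are not counts, limma 3.58.1 (R 4.3.3) was fitted to log2(RPKM + 1) (two-sided, blocked by cell line, variance prior trended on level) with Benjamini-Hochberg adjustment over the 16098 genes reaching 1 RPKM in 1 library or more. This left 1 residual degree of freedom, and the p-values reflect only how these libraries vary, which may be technical. For each gene that residual is the difference between the ratios of the 2 lines. Genes whose lines differ were thus called less readily at a given fall. CENPK (estimate -0.78, difference -0.23) was called and TPX2 (estimate -1.06, difference -1.10) was not. Within a line no test was made. The pairing by line comes from the sample titles.

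Library totals were recovered from RPKM steps and the lengths of microRNA hairpins, and whole reads (within 0.01, the smallest numbers that fit) from the shortest gene model up to 40000 bases; Clopper-Pearson intervals at 95% rest on them. Words of 31 bases came from GENCODE 29. Other lists were matched by symbol or Entrez identifier. The fit was also run on simulated data in which each changed gene had the same fold in both lines. That run does not show how the fit performs where the lines differ, as they do here. The genes, lists and tests were chosen with earlier results of these data known. Values are given per class for called genes, the 2 lowest and 2 highest mean ratios and the 2 largest differences between lines, and per other list for up to 4 genes and those called. A called gene of one other list is not reported here. Python 3.11.15 was used with pandas 2.3.3 and scipy 1.17.1.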

Additional observations from a re-analysis of the deposited data

How the results depend on the processing

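No result for any of the 47 genes changed direction under the alternatives tried (pseudocounts of 0.1 and 0.5, no filter or a filter at an RPKM of 5, 3 rescalings, no block, no trend, and each line alone). The number called lower by limma did change, from 30 to 2 after trimmed-mean rescaling, to 12 without the intensity trend, and to 0 with no filter on low values or with the median ratio set to 0 within each line; at an unadjusted p under 0.05 these settings gave 44, 44, 40 and 46 genes. Without the replicate block for cell line, 0 were called and 10 were lower at an unadjusted p under 0.05. With a filter at 5 RPKM 37 were called and after quantile normalization 36, each including all 30. In U251 the genes at least 2-fold lower went from 4 to 7 with either other pseudocount, 8 after quantile normalization and 7 with the median ratio set to 0. With no pseudocount, a setting chosen after seeing the data, they were 7. The U87MG median of the anaphase class went from -1.09 to -1.31 with a pseudocount of 0.1. Genes called lower in U87MG than in U251 went from 29 to 6 with no filter. The median over both lines ranged from -1.46 to -0.76 when a line was left out. In the window from 100 bases before to 50 after the start, members with an E2F site went from 3 to 1. Members with TTTGAA went from 28 to 18 in the 60 bases before the start, also chosen after seeing the data. The cause was not tested. Depth limits the weakest values: 39 reads stand behind SPC24 in the U87MG knockdown.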

Other observations

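Many TTTGAA matches of the members lay close before the start, and the others farther off or after it. Of 44 matches in the promoters of the 39 members with an entry, 22 had their first base within the 60 bases before the transcription start. A site in overlapping promoter entries of the same gene, as in ZWINT, CDC25C and ECT2, was counted in each entry. In that window 18 of the 39 members (46.2%) held TTTGAA, against 2.90% of 9004 tested mRNA genes. The 60-base window was chosen after the positions were seen, and the values are a description of letters, with no test.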
